A study of Mus musculus with 4 samples.

Results

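Pax6, Eomes, Neurog1, Neurog2, Neurod1, Neurod4, Insm1, Btg2 and Hes6 were chosen by name as 9 regulators that act in turn on the path from radial glial cell to intermediate progenitor cell to neuroblast, out of 21938 protein-coding genes in the annotation. Their open chromatin was read from ATAC-seq (an assay in which Tn5 transposase cuts accessible DNA) of hippocampi dissected from mice at postnatal day 0 (P0). The cKO group held 2 libraries of genotype Kdm2bEmx1-delta-CxxC, in which Emx1-Cre, active in progenitors of the dorsal telencephalon, deletes the part of Kdm2b that codes for its CxxC zinc finger. The Ctrl group held 2 libraries, each labelled as either Kdm2bfl/+ or Kdm2bfl/fl, so Ctrl animals may carry 1 or 2 floxed alleles and the labels do not say which library is which. The source label of all 4 libraries names neural progenitor cells, whereas the titles and the protocol name hippocampus. No label says whether a library came from 1 animal or from pooled animals, so p-values measure only the spread between these libraries, which may be technical.

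Radial glia are the stem cells that line the ventricle of the embryonic brain. In the dorsal telencephalon PAX6 marks these cells, proneural proteins of the basic helix-loop-helix class such as NEUROG2 push them toward a neuronal fate, and EOMES (TBR2) marks the intermediate progenitors that result. NEUROD proteins act next, in cells that leave the cell cycle. In the dentate gyrus this sequence continues after birth, and the hippocampus at P0 holds cells at every step of it. KDM2B binds CpG-rich DNA through its CxxC zinc finger and brings a Polycomb complex there, and many of these genes have CpG-rich promoters. In whole hippocampus, a change in the number of progenitors and a change in accessibility within each cell cannot be told apart.

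A peak was assigned to a promoter when its summit lay within 2 kb of a transcription start site (TSS) of the gene. Each library had its own list of peaks, and the lists were far from equal. Ctrl replicates 1 and 2 held 46389 and 7037 peaks and cKO replicates 1 and 2 held 21404 and 44535, and Ctrl replicate 2 stood apart in that 60.55% of its peaks lay mostly in repeats, against 5.374 to 14.74% in the others. The median peak rested on 18 to 20 fragments at its summit. The weakest listed peak rested on 7, 12, 9 and 8 fragments in the same order, and a site below that level is absent from a list without being closed. Because the lists were called separately, genes were ranked within each list. The promoter percentile of a gene is the percentage of protein-coding genes that it outranks in a list by the −log10 p of its strongest promoter peak, and a gene with no promoter peak gets 0. A shorter list therefore starts higher. The lowest percentile of a gene with a promoter peak was 41.98 and 91.73 in Ctrl replicates 1 and 2 and 59.75 and 44.14 in cKO replicates 1 and 2.

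Promoter peaks were found at 8 of the 9 genes in Ctrl replicate 1, where 58.0% of all protein-coding genes had one, and at 8 of 9 in cKO replicate 2, where 55.9% had one. In cKO replicate 1 the count was 5 of 9, beside 40.3% of all genes. In Ctrl replicate 2 it was 0 of 9, beside 8.27% of all genes. The same 5 genes, Pax6, Neurog2, Neurod1, Btg2 and Hes6, had a promoter peak in all of the lists other than Ctrl replicate 2. Eomes, Neurog1 and Insm1 had one in Ctrl replicate 1 and cKO replicate 2 only. Neurod4 had none in any list. Presence of a promoter peak therefore divided the genes in the same way in the longest list of each genotype.

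The sequences below show what DNA lay under 3 of these summits. They run 100 bases to either side of the summit of the best-ranked peak, in the direction of transcription, and capitals mark every CANNTG, the E-box that basic helix-loop-helix proteins bind. They were chosen to set a weak promoter (Eomes) beside those of a proneural gene (Neurog2) and its successor in the path (Neurod1). The windows are chr9:118477962-118478161 on the plus strand for Eomes, chr3:127632627-127632826 on the plus strand for Neurog2 and chr2:79456659-79456858 on the minus strand for Neurod1 (mm10).
Eomes: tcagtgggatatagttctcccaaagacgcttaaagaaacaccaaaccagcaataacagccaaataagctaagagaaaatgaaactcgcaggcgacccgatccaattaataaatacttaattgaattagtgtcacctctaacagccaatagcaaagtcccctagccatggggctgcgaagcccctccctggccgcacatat
Neurog2: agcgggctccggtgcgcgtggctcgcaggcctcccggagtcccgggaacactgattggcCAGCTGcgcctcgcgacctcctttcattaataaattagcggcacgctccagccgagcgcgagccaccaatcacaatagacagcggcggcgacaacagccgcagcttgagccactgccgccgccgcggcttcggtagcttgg
Neurod1: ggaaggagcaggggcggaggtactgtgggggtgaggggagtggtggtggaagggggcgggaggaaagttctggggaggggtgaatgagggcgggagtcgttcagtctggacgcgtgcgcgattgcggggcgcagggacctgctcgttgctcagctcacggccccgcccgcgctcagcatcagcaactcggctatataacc

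The windows differ in composition. GC content was 45.0% for Eomes, 66.0% for Neurog2 and 66.5% for Neurod1, and the CpG counts were 6, 24 and 16. Neurog2 held 1 E-box, which has the letters CAGCTG. The Eomes and Neurod1 windows held none.

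Pax6 (chromosome 2, 105668900 to 105697364, plus strand), the homeodomain factor of radial glia, had the highest mean promoter rank of the 9 genes across the lists. Its promoter peak rested on 81 fragments in Ctrl replicate 1, against 45 and 62 in cKO replicates 1 and 2. The summits lay 69, 32 and 41 bp upstream of 1 of the 8 annotated TSSs, within an exon of another transcript. The promoter percentile was 87.27 and 0 in Ctrl replicates 1 and 2, against 91.34 and 81.46 in cKO replicates 1 and 2, so Ctrl replicate 1 fell between the cKO libraries (exact permutation test, two-sided, p = 0.667, adjusted p = 1).

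Eomes (chromosome 9, 118478212 to 118486132, plus strand), the T-box factor of intermediate progenitors, had a weak promoter peak. It rested on 12 fragments in Ctrl replicate 1, with a summit 562 bp upstream of the TSS. In cKO replicate 2 there were 2 peaks, with 15 fragments at 150 bp and 13 fragments at 1267 bp upstream. The percentile was 43.96 in Ctrl replicate 1 and 47.33 in cKO replicate 2, against 41.98 and 44.14 for the weakest promoter peak of those lists, and 0 in the other libraries. Both values thus sat near the bottom of the ranked promoters, and 1 library of each genotype lacked the peak (exact permutation p = 1).

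Insm1 (chromosome 2, 146221921 to 146225020, plus strand), a zinc finger factor that drives the formation of basal progenitors, showed the same pattern of lists. Its promoter peak rested on 17 fragments in Ctrl replicate 1 and 24 in cKO replicate 2, at 414 and 258 bp upstream of the TSS. The percentile was 45.17 and 54.79 in these libraries and 0 in the rest (exact permutation p = 1).

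The proneural genes Neurog1 and Neurog2, which switch on neuronal differentiation, differed from each other. Neurog1 (chromosome 13, 56250478 to 56252163, minus strand) had promoter peaks of 8 and 9 fragments in Ctrl replicate 1, close to the floor of 7 in that list, and 1 of 15 fragments in cKO replicate 2. Its percentile in these libraries was 42.93 and 52.29, and it was 0 in the others (exact permutation p = 1). Neurog2 (chromosome 3, 127633135 to 127635631, plus strand) had 2 promoter regions in all of the lists other than Ctrl replicate 2. The upstream region rested on 23, 17 and 42 fragments in Ctrl replicate 1, cKO replicate 1 and cKO replicate 2, with summits 411, 160 and 408 bp before the TSS. The region in the exon, 1095 to 1343 bp after the TSS, rested on 26, 16 and 28. The exonic peak was the stronger in Ctrl replicate 1 and the upstream peak in both cKO lists. Ctrl replicates 1 and 2 had percentiles of 55.82 and 0, and cKO replicates 1 and 2 had 66.46 and 68.80, so the groups did not overlap (exact permutation p = 0.33, the smallest that 2 libraries against 2 can give).

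Btg2 and Hes6 come on as progenitors turn to neurogenic division. Btg2 (chromosome 1, 134075170 to 134079120, minus strand), an antiproliferative factor of neurogenic progenitors, had 1 promoter peak, with 64, 29 and 68 fragments in Ctrl replicate 1, cKO replicate 1 and cKO replicate 2 and summits 21 to 90 bp upstream of the TSS. Its percentile was 79.99, 0, 81.06 and 84.73 in Ctrl replicates 1 and 2 and cKO replicates 1 and 2 (exact permutation p = 0.33). Hes6 (chromosome 1, 91411483 to 91414038, minus strand), a HES family member that favours neuronal differentiation, had 2 promoter regions, at its TSS and about 1 kb upstream. The region at the TSS rested on 50, 16 and 47 fragments in Ctrl replicate 1, cKO replicate 1 and cKO replicate 2, and the upstream region on 47, 27 and 51. In both cKO lists the upstream region was the stronger. The percentile of Hes6 was 71.98, 0, 78.71 and 75.13 in the order used for Btg2 (exact permutation p = 0.33).

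Neurod1 and Neurod4 encode basic helix-loop-helix proteins of neuroblasts and young neurons. Neurod1 (chromosome 2, 79452521 to 79456751, minus strand) had a promoter peak with its summit within 13 bp of the TSS in each list that held it, on 37 fragments in Ctrl replicate 1 and on 25 and 44 in cKO replicates 1 and 2. The percentile was 61.80 and 0 in the Ctrl replicates and 77.09 and 68.63 in the cKO replicates (exact permutation p = 0.33). Neurod4 (chromosome 10, 130268152 to 130280240, minus strand) had a percentile of 0 in all 4 libraries. The nearest peak was listed in cKO replicate 2 alone, with 12 fragments at 2076 bp upstream, just outside the promoter window. When any overlap of a peak with the promoter counted, its difference between groups was 23.79 instead of 0.

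**Figure D1:**
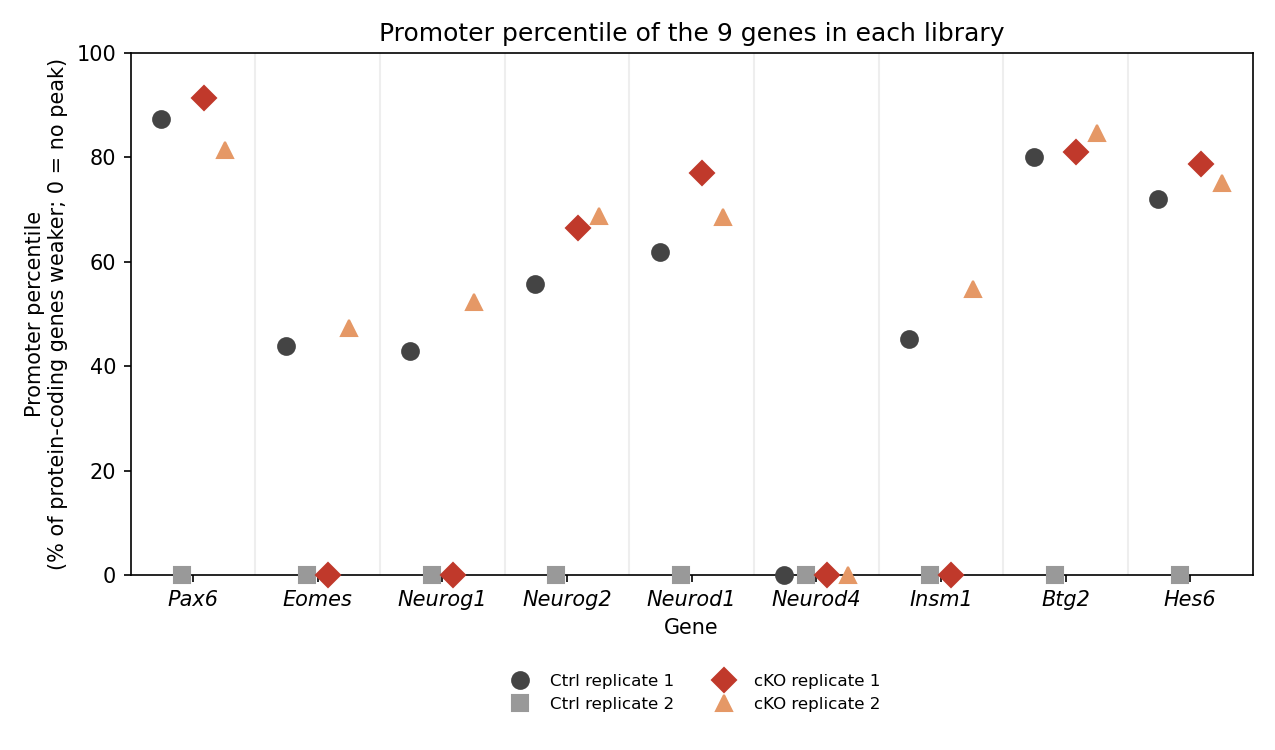
Promoter percentile (y axis, percent of protein-coding genes with a weaker promoter peak, 0 where a list holds no peak) of the 9 genes (x axis), with 1 point per library and no averaging. The points of Ctrl replicate 2 all lie at 0, and listed promoters of any gene start at 41.98 (Ctrl replicate 1), 59.75 (cKO replicate 1) and 44.14 (cKO replicate 2), so heights are not comparable between lists of different length.

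The comparison of genotypes asked whether these promoters ranked higher in cKO. Both cKO libraries ranked above both Ctrl libraries at Neurog2, Neurod1, Btg2 and Hes6, which are 4 of the 8 members with a promoter peak in any list (Neurod4 has none), and 20.5% of the 13196 genes with such a peak did so. With every member at 0 in Ctrl replicate 2, this order rests on Ctrl replicate 1 alone, and no member could be among the 2.80% of genes that ranked lower in both cKO libraries. Markers of progenitors (3 of 4) and of choroid plexus and ciliated cells (2 of 2) also ranked higher in both cKO libraries, and their part in these values was not tested. Neurog2 averaged 67.63 ± 1.65 in the cKO libraries against 27.91 ± 39.47 in the Ctrl libraries (SD, n = 2 each; exact permutation p = 0.33), and Neurod1 averaged 72.86 ± 5.985 against 30.90 ± 43.70 (SD, n = 2 each; exact permutation p = 0.33). The differences of group means (cKO minus Ctrl) were 39.72 for Neurog2, 41.96 for Neurod1, 42.90 for Btg2 and 40.93 for Hes6. These values rest mainly on the 0 of Ctrl replicate 2. When each list was cut to its 7037 strongest peaks, 1 gene (Btg2, difference 42.90) ranked higher in both cKO libraries. The promoter peaks of Neurog2, Neurod1 and Hes6 rank beyond 7037 in every list, so the cut removed them from all libraries and their differences of 0 compare 0 with 0. Without Ctrl replicate 2 the differences were 11.81, 11.06, 2.904 and 4.934. The 4 genes then ranked above Ctrl replicate 1 in both cKO libraries (23.8% of 13176 genes) and no member ranked below it in both, whereas 36.6% of those genes did. But any promoter listed in cKO replicate 1 starts at 59.75, above the 55.82 of Neurog2 in Ctrl replicate 1. For Neurog2 the order in cKO replicate 1 is therefore fixed once that list holds a peak. The Ctrl replicate 1 values of Neurod1 (61.80), Hes6 (71.98) and Btg2 (79.99) lie above 59.75. The part of list length in these orders was not tested. With promoters of 1 kb, Hes6 no longer ranked higher in both cKO libraries (difference 33.52, exact permutation p = 0.667). The adjusted p was 1 for each gene tested, and no p below 0.33 was possible.

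The mean promoter percentile over the 9 genes was 54.33 and 0 in Ctrl replicates 1 and 2 and 43.85 and 59.24 in cKO replicates 1 and 2. Over all protein-coding genes it was 41.18, 7.927, 32.13 and 40.25 in the same order. The difference between the groups for the 9 genes was 24.38, and it was −2.78 without Ctrl replicate 2. In number, the cKO libraries had a peak at 2.5 more of the 9 promoters on average, and 1.5 fewer without Ctrl replicate 2 (difference of −1.5). Neither direction was thus independent of that library.

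Ranks depend on how many genes have a peak, so depth was compared too. Scaled depth is the fragment number at a summit over the genome-wide mean depth of the same library, which was 1.622, 3.464, 2.074 and 1.807 fragments in Ctrl replicates 1 and 2 and cKO replicates 1 and 2. At the Pax6 promoter it was 49.93 in Ctrl replicate 1 and 21.69 and 34.32 in cKO replicates 1 and 2. At Neurod1 it was 22.81, 12.05 and 24.36, and at Btg2 39.45, 13.98 and 37.64, in the same order. In each of the 7 promoter regions held by the 3 lists, cKO replicate 1 had the lowest scaled depth, and Ctrl replicate 1 was above cKO replicate 2 in 5 of them. The lowest scaled depth of any listed peak was 4.32 and 3.46 in Ctrl replicates 1 and 2 and 4.34 and 4.43 in cKO replicates 1 and 2. Ctrl replicate 2 thus listed sites of lower scaled depth than the other libraries did, and none of them lay at these promoters. Peaks are called against the local background of a site, however, which can exceed the genome-wide mean. At the Pax6 promoter in Ctrl replicate 1 it was 6.806 fragments, against 1.622 genome-wide. The lowest listed depth thus does not show what depth Ctrl replicate 2 needed to list these promoters.

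**Figure D2:**
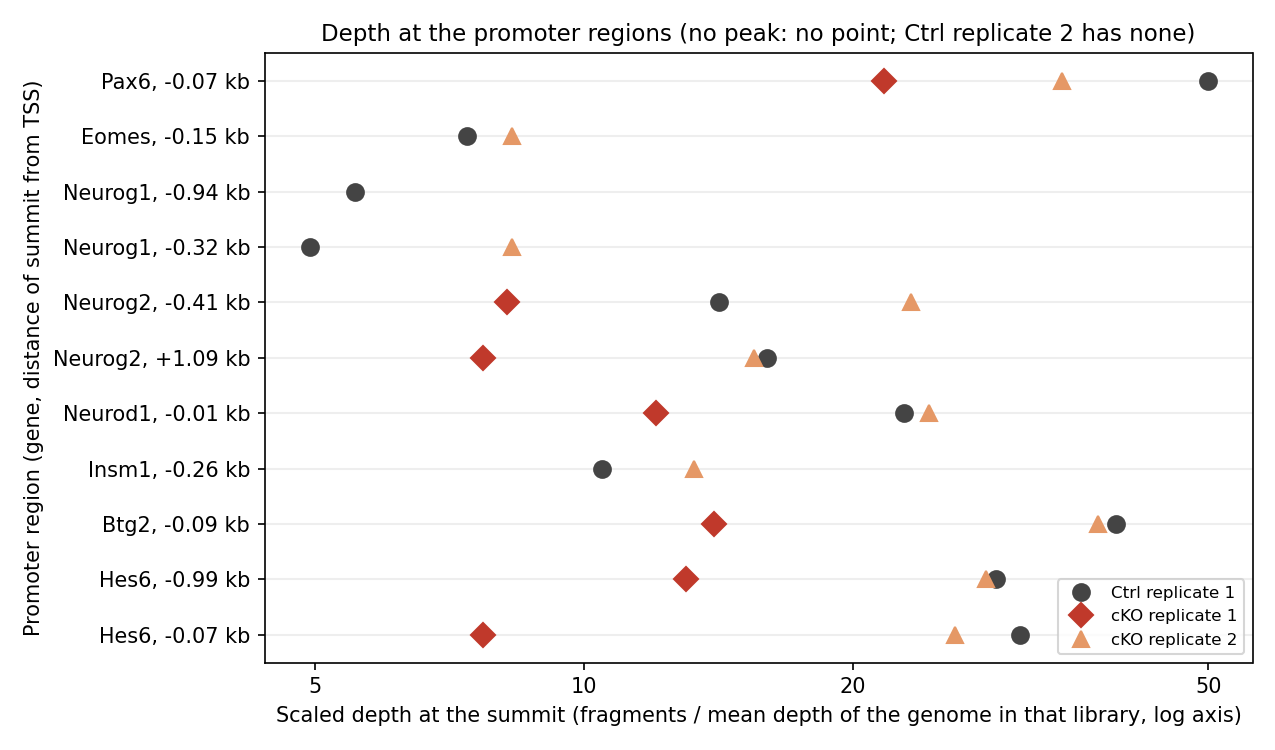
Scaled depth at the summit (x axis, log scale, fragments over the genome-wide mean depth of the same library) of the 11 promoter regions (y axis, with the distance of the summit from the TSS), with 1 point per library that lists a peak. Pax6 is deepest in Ctrl replicate 1 at 49.93, cKO replicate 1 is lowest wherever it has a point, and Ctrl replicate 2 has no point.

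Beyond the promoters, the gene bodies and 50 kb to either side held 59 open regions, of 58652 regions in the series after overlapping peaks of the 4 lists were joined. There were 8 regions each at Neurod4, Btg2 and Hes6, 7 at Pax6, 6 each at Neurog1, Neurog2, Neurod1 and Insm1, and 4 at Eomes. Per length this was 3.706 (Eomes) to 7.801 (Hes6) regions per 100 kb, beside a median of 2.9 and an upper quartile of 4.571 over all protein-coding genes. All of the loci but Eomes exceeded that quartile. Of the 59 regions, 11 were promoters of the genes themselves, 8 were promoters of neighbouring genes, 4 lay in introns of the genes, 15 in introns and 2 in exons of neighbours, and 19 were intergenic.

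Among these regions, 46 and 3 were listed in Ctrl replicates 1 and 2, against 24 and 50 in cKO replicates 1 and 2. The groups overlapped, and the difference of 12.5 regions became −9.0 when Ctrl replicate 2 was left out and −0.5 when cKO replicate 2 was. The commonest pattern was a region in all of the lists other than Ctrl replicate 2, with 20 of the 59 (33.9%, against 25.9% of all regions in the series). Another 18 (30.5%) were in Ctrl replicate 1 and cKO replicate 2 alone, against 27.1% of all regions. None was particular to the pair of cKO lists, a pattern that covered 0.692% of all regions. None was shared by all 4 lists, against 5.56% of all regions. The 3 regions that Ctrl replicate 2 listed, at 32.3 kb upstream of Neurod1, 29.8 kb upstream of Neurod4 and 9.3 kb upstream of Hes6, were 100% repeat-masked. Outside repeats, therefore, Ctrl replicate 2 had no listed peak at any of these loci.

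**Figure D3:**
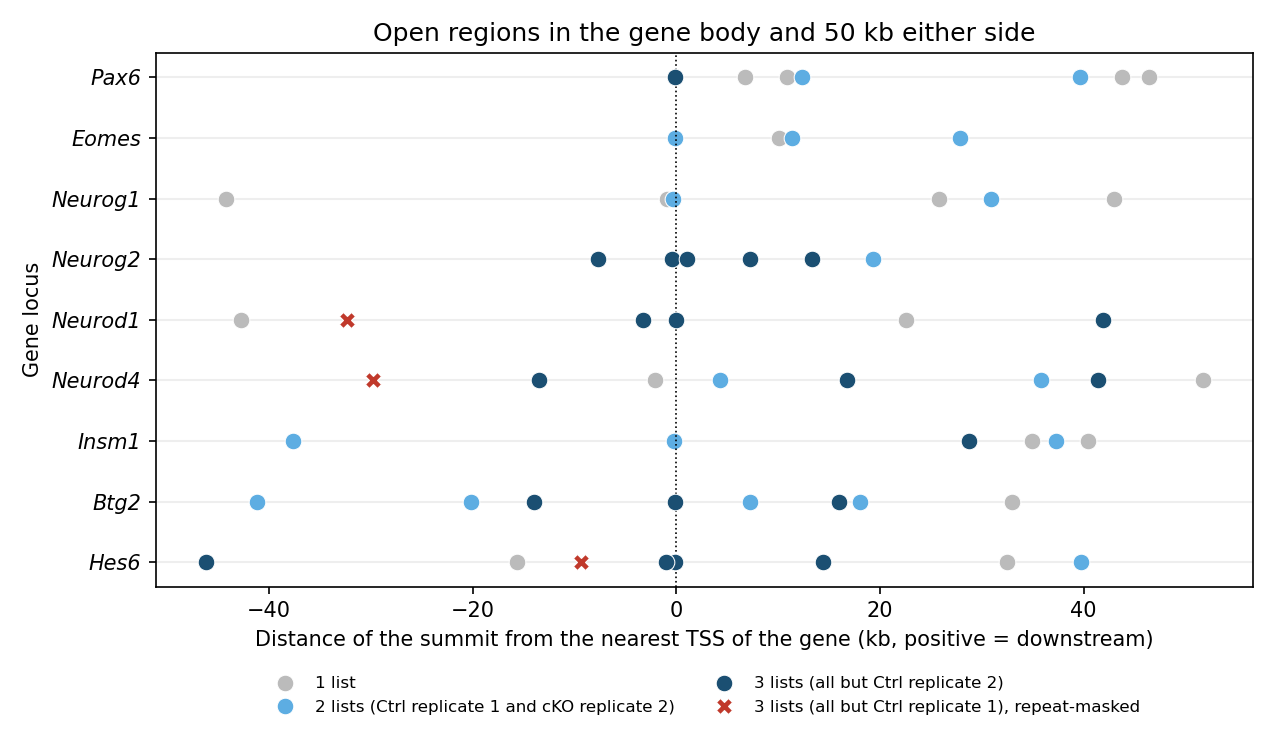
Position of the 59 open regions relative to the nearest TSS of each gene (x axis, kb, positive downstream; y axis, gene), coloured by the lists that hold them. The Neurog2 and Hes6 loci each hold 5 regions in 3 lists (at Hes6 including a repeat-masked one), Neurod4 has none at its TSS, and crosses mark the 3 repeat-masked regions of Ctrl replicate 2.

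Neurod4 showed the clearest contrast between promoter and surroundings. A region 16.8 kb downstream of its TSS, past the end of the gene (chromosome 10, 130263206 to 130263677, intergenic), rested on 67 fragments in Ctrl replicate 1 and on 48 and 91 in cKO replicates 1 and 2. It ranked 2968, 891 and 1031 in these lists, a mean of 4.292% from the top, and its scaled depth was 41.30, 23.14 and 50.37. Among the distal regions of the 9 loci it was surpassed in mean rank only by the promoter of Per2, a clock gene, which lies 46.2 kb upstream of Hes6 and rested on 115, 51 and 111 fragments. A further region 35.8 kb downstream of Neurod4 rested on 24 fragments in Ctrl replicate 1 and 31 in cKO replicate 2.

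The sequence under the strong Neurod4 region is set beside the RefSeq promoter of the gene, because the first had a peak in 3 lists and the second in none. The region window is chr10:130263312-130263511 and the promoter, from 250 bases before to 50 after the start (RefSeq, GRCm38.p6), is chr10:130280205-130280504, both read on the minus strand. The region window runs 100 bases to either side of its summit, and capitals again mark CANNTG.
Neurod4 downstream region: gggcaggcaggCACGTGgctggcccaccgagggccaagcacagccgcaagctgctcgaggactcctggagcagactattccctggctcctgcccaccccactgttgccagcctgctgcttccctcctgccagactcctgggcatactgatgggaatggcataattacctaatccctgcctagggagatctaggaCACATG
Neurod4 promoter: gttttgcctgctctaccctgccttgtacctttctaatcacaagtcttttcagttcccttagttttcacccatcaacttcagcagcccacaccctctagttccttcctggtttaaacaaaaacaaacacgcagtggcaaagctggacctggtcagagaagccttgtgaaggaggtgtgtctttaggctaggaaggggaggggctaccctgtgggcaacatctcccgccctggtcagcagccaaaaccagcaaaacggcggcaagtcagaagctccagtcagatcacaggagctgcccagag

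The downstream window had a GC content of 61.5%, 4 CpGs and 2 E-boxes. The printed promoter had a GC content of 52.3%, 4 CpGs and no E-box, and the median RefSeq promoter of this length in the mouse holds 7 CpGs.

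At the Neurog2 locus 5 of the 6 regions were in 3 lists, as were 5 of the 8 at Hes6. Those at Hes6 include the repeat-masked region, which was in Ctrl replicate 2 and not in Ctrl replicate 1. At Neurog2, a region 7.2 kb downstream of the TSS (chromosome 3, 127639676 to 127640773, intergenic) rested on 29 fragments in Ctrl replicate 1, against 20 and 57 in cKO replicates 1 and 2. Another, 19.3 kb downstream, had 40 fragments in Ctrl replicate 1, 23 in cKO replicate 2 and no peak in cKO replicate 1. The first was thus deepest in a cKO library and the second in a Ctrl library. The first is printed because it was the best-ranked of the Neurog2 regions listed in 3 libraries. Its window, chr3:127640269-127640468 on the plus strand, reaches 100 bases to either side of the summit and holds 5 CpGs and no E-box.
Neurog2 downstream region: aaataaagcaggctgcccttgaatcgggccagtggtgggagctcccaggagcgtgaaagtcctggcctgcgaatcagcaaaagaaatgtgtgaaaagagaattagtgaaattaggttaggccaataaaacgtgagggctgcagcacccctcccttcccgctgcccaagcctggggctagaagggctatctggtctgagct

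At the other loci the best-ranked distal regions were mostly in or at neighbouring genes. Near Insm1, an intron of Ralgapa2 28.8 kb downstream (chromosome 2, 146250405 to 146250951) rested on 48, 33 and 52 fragments in Ctrl replicate 1, cKO replicate 1 and cKO replicate 2, although the Insm1 promoter itself had no peak in cKO replicate 1. Near Neurod1, an intron of Cerkl 41.9 kb downstream rested on 25, 21 and 25 fragments, and an exon of Gm26755 3.24 kb upstream on 31, 18 and 41. Near Btg2, an intergenic region 14.0 kb upstream rested on 41, 19 and 41, again in the same order. The promoter of Gm38140, 20.1 kb upstream of Btg2, rested on 28 fragments in Ctrl replicate 1 and 27 in cKO replicate 2. Near Hes6, the promoter of Ilkap 14.4 kb downstream rested on 41, 13 and 34.

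Pax6, Eomes and Neurog1 had fewer distal regions in more than 1 list. For Pax6 the best were an intron of the gene 12.4 kb downstream, with 16 fragments in Ctrl replicate 1 and 17 in cKO replicate 2, and an intron of Elp4 39.7 kb downstream, with 14 and 17. For Eomes they were the promoters of Golga4 at 27.9 kb, with 26 and 20 fragments in these libraries, and of Gm33460 at 11.4 kb, with 10 and 13. For Neurog1 there was 1, intergenic and 30.9 kb downstream, with 12 and 15. None of these was listed in cKO replicate 1. At Pax6 the promoter was thus the 1 region of 7 that was in 3 lists. Neurod4 had 4 regions in 3 lists, including its repeat-masked region, and no promoter peak.

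Depth at shared regions was tested with limma on log2 scaled depth, each library centred on its median. Of 3204 regions held by all 4 lists, 0 were called at an adjusted p of 0.05 (0%) and 0 had an unadjusted p below 0.05, and 0 of them lay at these loci. So few unadjusted p below 0.05 is less than that threshold passes when nothing differs. The absence of calls in this fit therefore does not show equal depth. Regions of the genes entered only where 1 Ctrl library was left out. Without Ctrl replicate 1, 3717 regions were held by the 3 remaining lists, 0 were called and 686 had an unadjusted p below 0.05. The regions of these loci in that fit were the 3 repeat-masked ones, with log2 differences (cKO minus Ctrl) of −1.62 near Neurod1 (unadjusted p = 0.0269, adjusted p = 0.264 by limma), −1.33 near Hes6 (adjusted p = 0.264) and −0.71 near Neurod4 (adjusted p = 0.366). The median there was −0.77 over all regions tested. These signs come after centring. Before it, the median scaled depth in that fit was 6.928 in Ctrl replicate 2, against 13.98 and 20.48 in cKO replicates 1 and 2. The Neurod4 repeat region had 6.062 in Ctrl replicate 2 and 8.195 and 9.963 in the cKO libraries, the Hes6 one had 6.639 against 6.267 and 6.642, and the Neurod1 one had 6.351 against 5.785 and 4.428. Uncentred, only the Neurod1 region was thus lower in both cKO libraries. Without Ctrl replicate 2, 18369 regions were held by the 3 remaining lists, 20 were called (0.109%), all of them higher in cKO, and 20 regions of these loci entered. In that fit the median scaled depth was 20.34 in Ctrl replicate 1 and 9.159 and 19.37 in cKO replicates 1 and 2. The lowest listed depth was 4.32, 4.34 and 4.43 in the same order, so centred values in cKO replicate 1 had the least room to fall. The part of this in the calls was not tested. In both fits that left out 1 Ctrl library, the lone Ctrl library is assumed to vary as the cKO libraries do. No region of the 9 loci was called in either.

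On the centred scale the direction without Ctrl replicate 2 differed between loci. All 5 regions at Neurog2, all 3 each at Neurod1 and Neurod4 and the 1 at Insm1 had a higher mean in cKO. The regions at Btg2 (3 of 3), Pax6 (1 of 1) and Hes6 (3 of 4) had a lower one. Over the 20 regions the median log2 difference was 0.10, beside −0.04 over all regions tested. The largest was 7.65 kb upstream of Neurog2 (chromosome 3, 127625384 to 127626185), with 13 fragments in Ctrl replicate 1 and 16 and 28 in cKO replicates 1 and 2. The centred value of this region was −1.34 in Ctrl replicate 1, against −0.248 and −0.322 in cKO replicates 1 and 2. A listed peak in cKO replicate 1 has a scaled depth of at least 4.34, against a median of 9.159. When centred, that lowest depth still lies above −1.34. The order of cKO replicate 1 was therefore fixed once it listed the region. At this region the log2 difference was 1.06 ± 0.46 (SE) by limma, above 96.7% of all regions. At the upstream promoter region of Neurog2 it was 0.57 ± 0.35 (adjusted p = 0.724) and 7.2 kb downstream it was 0.58 ± 0.34 (adjusted p = 0.720). At the other end, the Ilkap promoter near Hes6 had −0.61 ± 0.34 (adjusted p = 0.690) and the TSS region of Hes6 −0.51 ± 0.34 (adjusted p = 0.759). The Neurod4 downstream region had 0.34 ± 0.28 (adjusted p = 0.822), Neurod1 0.20 ± 0.33 at its promoter (adjusted p = 0.924) and Pax6 −0.26 ± 0.30 (adjusted p = 0.880).

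The signs without Ctrl replicate 2 depend on centring too. The median scaled depth of the shared regions was 20.34 in Ctrl replicate 1, against 9.159 and 19.37 in cKO replicates 1 and 2. At the region 7.65 kb upstream of Neurog2, scaled depth was 8.014 in Ctrl replicate 1 and 7.713 and 15.5 in cKO replicates 1 and 2. Before centring, only cKO replicate 2 was thus higher than Ctrl replicate 1 there. Without centring the median difference of all regions was −0.65, that of the 20 regions was −0.51, only the region 7.65 kb upstream of Neurog2 stayed above 0 (0.45), and 0 regions of the series were called.

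**Figure D4:**
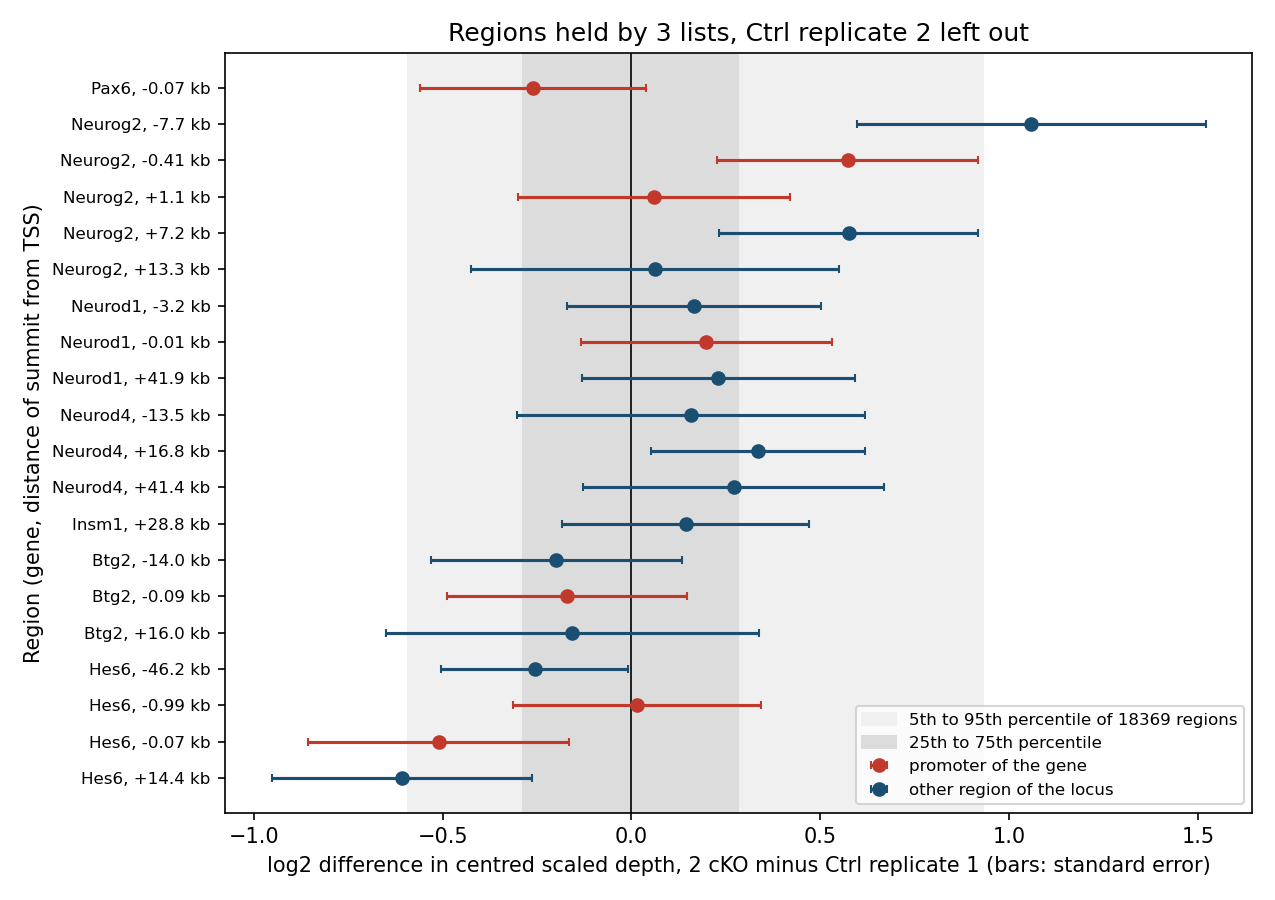
Log2 difference in centred scaled depth, 2 cKO libraries minus Ctrl replicate 1 (x axis, bars are standard errors from limma), for the 20 regions held by these 3 lists (y axis, with the distance from the TSS). The outer grey band spans the 5th to 95th percentile of all 18369 regions and the inner band their middle quartiles. Of the 20 regions, the one 7.65 kb upstream of Neurog2, at 1.06, lies above the outer band and the Ilkap promoter near Hes6, at −0.61, lies just below its lower edge of −0.59.

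CpG content was examined because the deleted zinc finger binds CpG-rich DNA. In the 1000 bases centred on a TSS, and taking the most CpG-rich TSS of each gene, the count was 125 for Insm1, 89 for Neurog1, 84 for Neurog2, 73 each for Pax6, Btg2 and Hes6, 49 each for Eomes and Neurod1, and 11 for Neurod4. The median over all protein-coding genes was 47, so 8 of the 9 lay above it. Insm1 had more CpGs than 97.3% of genes and Neurod4 more than 19.4%. In the lowest tertile of genes by CpG count (0 to 21), which holds Neurod4, a promoter peak was found for 8.18% and 0.67% in Ctrl replicates 1 and 2 and for 3.10% and 7.36% in cKO replicates 1 and 2. In the highest tertile (65 to 181) the shares were 91.7, 16.3, 70.6 and 89.6%. Of the 6 members in that tertile, Pax6, Neurog2, Btg2 and Hes6 had a peak in 3 lists and Insm1 and Neurog1 in 2. The order of the members by CpG count was not their order by promoter rank, since Insm1 and Neurog1 held the most CpGs and ranked below Neurod1.

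Motifs were searched on both strands in the 200 bases around the best-ranked summit of each region. The E-box CANNTG was found in 7 of the 11 promoter regions, beside 47.2% of all promoter regions in the series. Of its forms that proneural proteins prefer, CAGCTG was found in 3 (at Neurog2 and both Hes6 regions; 11.3% of all) and CAGATG in 1 (in the Neurog2 exon; 7.93%). The N-box CACNAG, bound by HES proteins, was in 2 (29.9%). The RBPJ motif GTGGGAA (4.03% of all), the TCF/LEF motif CTTTGAT (1.26%) and the T-box motif GGTGTGA (1.85%) were in none of the 11. In 44 regions away from promoters of protein-coding genes, CANNTG was in 33 (75%, against 73.6% of all such regions), CACNAG in 21 (47.7%, against 34.9%), CAGCTG in 6 (13.6%, against 18.6%), CAGATG in 7 (15.9%, against 25.8%), GTGGGAA in 2 (4.55%, against 4.48%), CTTTGAT in 1 (2.27%, against 2.98%) and GGTGTGA in 1 (2.27%, against 2.86%). A match describes the letters in a window and not binding.

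Other genes of the same path were set beside the members as lists of 10. For comparison, 58.0 and 8.27% of all protein-coding genes had a promoter peak in Ctrl replicates 1 and 2, and 40.3 and 55.9% in cKO replicates 1 and 2. Of the 13196 genes with a promoter peak in any list, 20.5% ranked higher in both cKO libraries than in both Ctrl libraries. Of progenitor and Notch pathway genes, which act upstream, 9 and 1 had a promoter peak in Ctrl replicates 1 and 2, 7 and 9 had one in cKO replicates 1 and 2, and in 5 both cKO libraries ranked above both Ctrl libraries. Rbpj, the DNA-binding partner of Notch, had the highest mean percentile of that list, 89.5, with a peak in all 4 libraries, and Notch1 had no peak in any. Of targets and partners of proneural factors the counts in that order were 8, 1, 5 and 9, and 2 ranked higher in both cKO. Tcf3, which encodes an E protein that dimerises with proneural factors, had a percentile of 97.74 to 98.84 in all 4 libraries. Of genes of postmitotic neurons the counts were 8, 0, 5 and 9, and 1 ranked higher in both cKO, with Tubb3, a neuronal tubulin, at a mean percentile of 59.9 and Bcl11b at 0 in every library. No list was tested, and a gene at 0 in Ctrl replicate 2 could not rank lower in both cKO libraries. Ctrl replicate 2 therefore had a promoter peak at Rbpj and Tcf3 and at no other of the 30 genes.

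The labelled tissue was checked against markers. All 5 genes of dorsal telencephalon and hippocampus used here (Emx1, Emx2, Lhx2, Zbtb20 and Prox1) had a promoter peak in Ctrl replicate 1 and cKO replicate 2, 2 had one in cKO replicate 1 and 0 in Ctrl replicate 2. Progenitor markers (Sox2, Nes, Vim and Fabp7) had 3, 0, 3 and 4 of 4 in Ctrl replicates 1 and 2 and cKO replicates 1 and 2. In percentile, Sox2 had 63.64 and 0 in the Ctrl libraries against 85.49 and 75.03 in cKO, Nes had 0 in both Ctrl libraries against 60.69 and 52.05, and Vim had 86.96 and 0 against 91.99 and 88.21, so these 3 were higher in both cKO libraries, while Fabp7 was not. Of the dorsal telencephalon genes, Emx2 and Lhx2 (2 of 5) were, beside 20.5% of the 13196 genes with a promoter peak in any list. Interneuron markers had 2, 0, 0 and 1 of 4, oligodendrocyte lineage markers 1, 0, 0 and 1 of 3, and choroid plexus and ciliated cell markers 2, 0, 2 and 2 of 2. Both of the last, Ttr (49.75 and 0 in Ctrl, 59.82 and 57.52 in cKO) and Foxj1 (64.16 and 0, 67.50 and 67.19), ranked higher in both cKO libraries. No interneuron or oligodendrocyte lineage marker had a peak in cKO replicate 1, so none of them could rank higher in both. The percentiles of Ttr and Nes in cKO replicate 1 are close to the lowest a listed promoter can have there, 59.75. Nes is at 0 in both Ctrl libraries, so any listed peak in a cKO library ranks higher. Microglia (0 of 3), vessel (0 of 2) and other-tissue genes (0 of 4) had none in any library. The marker genes, like the 9 genes, had no promoter peak in Ctrl replicate 2, and their part in the results was not tested.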

How the data were processed

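ATAC-seq peak lists of 2 cKO and 2 Ctrl libraries from P0 hippocampus were analysed. Groups and replicate numbers came from the sample titles. Per the study's methods, reads were trimmed (Cutadapt), aligned to mm10 (Bowtie2), cleared of blacklisted, mitochondrial and duplicate reads, and shifted for the transposase offset. Peaks were called by the authors with MACS2 2.2.7.1 in each library alone, with no control and no pooling. Shifting moves ends by a few bases, and blacklist removal can hide repeats.

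The deposited lists give a score (a display value, not used), a fold enrichment (the ratio of fragment depth to local background), −log10 p and −log10 q, all made by the authors' MACS2 run. Folds and −log10 p values were used within a list only. Whole fragment numbers at summits were recovered from the deposited fold and −log10 p, within 0.01 of the latter for at least 99.986% of the peaks tried; peaks with a −log10 p of 250 or more were not tried. The recovery was not checked against reads.

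TSSs came from the basic GENCODE M21 set (21938 protein-coding genes, mm10). Regions were peaks joined over lists by at least 1 bp. A peak with at least 50% of its bases soft-masked was called repeat-masked. Named regions were the promoter regions and, per locus, the 2 other regions with the best mean rank held by at least 2 lists. Regions that stood out in depth or repeats were named after their values were seen. From each other gene list the genes of highest and lowest mean percentile were considered for naming. The members, lists and tests were chosen with earlier results of these data known.

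Groups were compared by difference of means with an exact permutation test (two-sided, 6 assignments of the libraries), adjusted by Benjamini-Hochberg over 13196 genes. They were also compared by limma 3.58.1 (R 4.3.3, eBayes with trend). The limma code was run on simulated data with a preset spread that was not taken from these libraries. That run does not show what limma can call at the spread of these data. Other steps used Python 3.11.15, numpy 2.4.6, pandas 2.3.3 and scipy 1.17.1. Alternatives were promoters of 1 kb, a −log10 q of at least 5, equal-size lists of 7037 peaks, overlap in place of summit, rank by fold, no repeats, other TSS sets, windows of 25 and 100 kb, other joining, no centring, a replicate block and each library left out. The comprehensive TSS set and the fit that drops both Ctrl replicate 2 and centring were chosen after seeing the data. A marker gene and a promoter sequence are not reported here.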

Additional observations from a re-analysis of the deposited data

How the results depend on the processing

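With 2 libraries per group, leaving out 1 library reversed some directions. Over the fits that each left out one library, cKO exceeded Ctrl by −1.5 to 6.5 genes with a promoter peak (2.5 with all libraries), by −2.78 to 51.55 in mean promoter percentile (24.38) and by −9.0 to 34.5 open regions (12.5), and the difference was below 0 without Ctrl replicate 2 in all of these and without cKO replicate 2 (−0.5) for regions. The number of genes higher in both cKO libraries ranged from 4 to 7, the highest without cKO replicate 1, and regions called by limma from 0 to 20. Leaving out cKO replicate 1, a gene counted when cKO replicate 2 alone ranked above both Ctrl libraries. Every member is at 0 in Ctrl replicate 2, so those 7 rest on cKO replicate 2 against Ctrl replicate 1. Leaving out Ctrl replicate 1, the 5 genes counted were compared with 0 alone. Among these fits, a share of all genes is given only for the one without Ctrl replicate 2 (23.8%, beside 4 members). By gene the difference ranged from −0.8729 to 86.4 for Pax6, −21.98 to 25.35 for Eomes, −21.47 to 30.82 for Neurog1 and −22.58 to 32.21 for Insm1. For Neurog2, Neurod1, Btg2 and Hes6 it stayed above 0, and was lowest without Ctrl replicate 2 (11.81, 11.06, 2.904 and 4.934). Below 0 were Pax6, Eomes (−20.29), Neurog1 (−16.79) and Insm1 (−17.77) without Ctrl replicate 2, and the last 3 without cKO replicate 2. The cause was not tested.

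With all libraries kept, no direction reversed. Equal-size lists left 1 gene (Btg2) higher in both cKO libraries in place of 4, since only it and Pax6 keep a promoter peak there, put Eomes, Neurog1, Neurog2, Neurod1, Insm1 and Hes6 at 0 in every library and lowered the difference to 9.518 in mean percentile, to 1.0 gene and to 1.0 region. The other settings gave 23.01 to 29.09 in mean percentile. With promoters of 1 kb, 3 genes were higher in both cKO libraries, as Hes6 (33.52) no longer was. A −log10 q of at least 5 raised the differences of Neurog1 from 4.677 to 26.14 and of Insm1 from 4.811 to 27.4, and lowered that of Eomes from 1.687 to 0.

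The replicate numbers do not pair the libraries by any label, and deviations of same-numbered libraries correlated at 0.053 over 13196 genes. With the replicate block, 5 genes were higher in cKO within both pairs. Every member is at 0 in Ctrl replicate 2, so any member with a peak in cKO replicate 2 is higher in that pair. The 5 thus rest on cKO replicate 1 against Ctrl replicate 1, and no share of all genes is given for this pairing. Under the block, limma called 0 regions and the differences kept their values (24.38 in mean percentile, 12.5 regions). The smallest exact p of the block is 0.5.

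Depth limits what the lists hold. No site under 7 to 12 fragments, depending on the list, appears. Where the local background is high, a site above that level can be unlisted too. Without reads, a closed promoter cannot be told from an open one that is unlisted.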
